A study of Arabidopsis thaliana with 2 samples.

Results

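ALE1 (ABNORMAL LEAF SHAPE 1, locus AT1G62340) is 1 of 2049 loci that could be placed in allele-specific read matches from Arabidopsis thaliana seeds. RNA came from whole F1 seeds at 4 days after pollination (DAP) of the reciprocal crosses Bur-0×Col-0 and Col-0×Bur-0, with the mother named first. Both parents were unmutated accessions, and emasculated flowers were pollinated by hand. Each cross was sequenced as 1 library on 4 lanes, so there is no replicate check. Every test below is made within or between these 2 libraries and does not compare the crosses as conditions. Intervals cover counting error only. The measurement is the number of 36-nt reads that matched a 71-nt window around a SNP between the accessions, made once with the Col-0 and once with the Bur-0 base. A match therefore tells which parent the transcript came from, and the 4 classes are written mBur and pCol in the cross with the Bur-0 mother, mCol and pBur in its reciprocal (m maternal, p paternal). The windows of ALE1 were found as the one run of neighbouring matched windows on chromosome 1 whose 4 summed counts equal those listed for the locus by the study. The sums are thus fixed by the rule, and the values below compare them and split them over windows, lanes and reads. Exactly 1 run met the rule, with 52 of the 147349 matched windows of the series, from position 23054630 to 23059312 of chromosome 1 in the TAIR8 build. Gene models of that build were not used here, so exons and introns are not assigned.

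ALE1 encodes a subtilisin-like serine protease (SBT2.4) of the endosperm, where it is made next to the young embryo. It is needed for a continuous cuticle on the embryo surface and for the separation of embryo and endosperm. The protease cuts the precursor of the peptide TWS1, which the embryo makes, and the mature peptide is sensed by the receptor kinases GSO1 and GSO2 in the embryo epidermis. Endosperm carries 2 maternal genomes for each paternal one (2m:1p, a maternal share of 66.7%), the embryo carries 1 of each, and the seed coat is maternal throughout. In RNA from whole seeds, a change in the amount of a tissue and a change in its RNA per cell cannot be told apart.

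The libraries held 8576779 matches for Bur-0×Col-0, of which 95.4% were maternal, and 6773239 for Col-0×Bur-0, of which 93.2% were maternal. Lanes held 1295748 to 2313110 matches. Lane 2 of Col-0×Bur-0 stood apart, since its window counts were dispersed 7.03 to 8.28 times the sampling noise against the other lanes of that cross. Between all other pairs of lanes within a cross the dispersion was 0.989 to 1.26. All 5 seed coat markers of the proanthocyanidin pathway (BAN, LDOX, TT4, TT5 and DFR) were placed, with maternal shares of at least 99.6%. The endosperm genes PHE1 and YUC10 were present, each with an excess of paternal matches in either cross. YUC10 had few matches, 9 with a Bur-0 mother and 12 with a Col-0 mother. The seed coat markers and these endosperm genes come from the study's lists of parentally biased genes. Their directions are therefore fixed by that choice and are no check on tissue content. The part of seed coat RNA in the ALE1 counts was not tested.

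ALE1 RNA came mainly from the mother in both crosses, and much more of it was found when Bur-0 was the mother. The maternal share was 76.7% in Bur-0×Col-0 (283 mBur against 86 pCol, 95% Wilson interval 72.1% to 80.7%). The reciprocal Col-0×Bur-0 gave 85.5% (71 mCol against 12 pBur, 76.4% to 91.5%). Both intervals lie above the endosperm share of 66.7%, and they overlap each other. The difference between the crosses was 8.85 percentage points (two-sided Fisher's exact test, p = 0.0791). One-sided exact binomial tests against 2m:1p gave p = 1.68e-05 for Bur-0×Col-0 and 8.4e-05 for Col-0×Bur-0, and the larger p squared, as the study joins them, was 7.09e-09. The study selected the locus with this test on these libraries, and its 4 sums served to place it, so tests on the sums describe ALE1 and are not independent evidence.

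As matches per 1000000 matches of the library, mBur stood at 33.0 (exact Poisson interval 29.3 to 37.1) and pBur at 1.77 (0.915 to 3.09). Maternal Col-0 stood at 10.5 (8.19 to 13.2) and paternal Col-0 at 10.0 (8.02 to 12.4). The Bur-0 allele was thus far more abundant from the mother than from the father, and the values of the Col-0 allele over all windows were close to each other. Scaled to the library totals, maternal over paternal was 18.6 for Bur-0 (10.5 to 36.5) and 1.05 for Col-0 (0.753 to 1.45). Over all windows the interval for Col-0 spans 1, and leaving out the first window of the run brought its upper limit just below 1. Without that window the Col-0 ratio was 0.692 (0.474 to 0.999), from 6.94 mCol and 10.0 pCol per 1000000 matches, and the Bur-0 ratio was 16.5 (9.29 to 32.4). This was not so in every set that lacks it. For the isolated windows other than the first, described below, the Col-0 ratio was 0.791, and its interval spans 1 (0.429 to 1.43). All these ratios join the 2 libraries, so the overall level of ALE1 in each enters them.

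That level differed between the libraries. With a Bur-0 mother ALE1 had 369 matches, with a Col-0 mother 83, which is 3.51-fold more per library total (exact interval 2.76 to 4.51). Of 1983 placed loci with at least 50 matches, 10 (0.504%) had a ratio at least as high, and the median ratio was 0.879. The placed loci all come from the study's lists of parentally biased genes, not from all genes. The spacing of SNPs, which differs between loci, was not taken into account in this ranking. Maternal-to-maternal, mBur over mCol, and paternal-to-paternal, pCol over pBur, both pointed the same way, since each class of Bur-0×Col-0 exceeded its counterpart on that scale. By arithmetic, with equal maternal shares in the crosses, a ratio of totals of this size sets the scaled Bur-0 and Col-0 ratios apart by its square, 12.3-fold. They were 17.8-fold apart. The totals come from the same 4 counts, so a level of the whole gene and levels of single alleles cannot be told apart here.

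The lanes gave the same picture. Lanes 1 to 4 of Bur-0×Col-0 held 56, 68, 69 and 90 maternal and 24, 19, 13 and 30 paternal matches, with maternal shares of 70.0%, 78.2%, 84.1% and 75.0%. Lanes 1 to 4 of Col-0×Bur-0 held 12, 15, 22 and 22 maternal and 4, 2, 4 and 2 paternal matches, with shares of 75.0%, 88.2%, 84.6% and 91.7%. Maternal matches exceeded paternal ones in all 8 lanes, and the shares of the crosses overlapped. Within a cross, the split did not differ detectably between lanes (exact Fisher-Freeman-Halton test, p = 0.182 and 0.518). The level did not overlap, with 35.6 to 51.9 per 1000000 matches in the lanes of Bur-0×Col-0 and 9.28 to 14.2 in those of Col-0×Bur-0. The lanes are listed under 1 sample per cross and are not counted as replicates, and whether the deviating lane came from another preparation is not stated. Without the deviating lane 2, the maternal share in Col-0×Bur-0 was 84.8% (74.3% to 91.6%), and the ratio of totals was 3.22 (2.47 to 4.25).

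**Figure D1:**
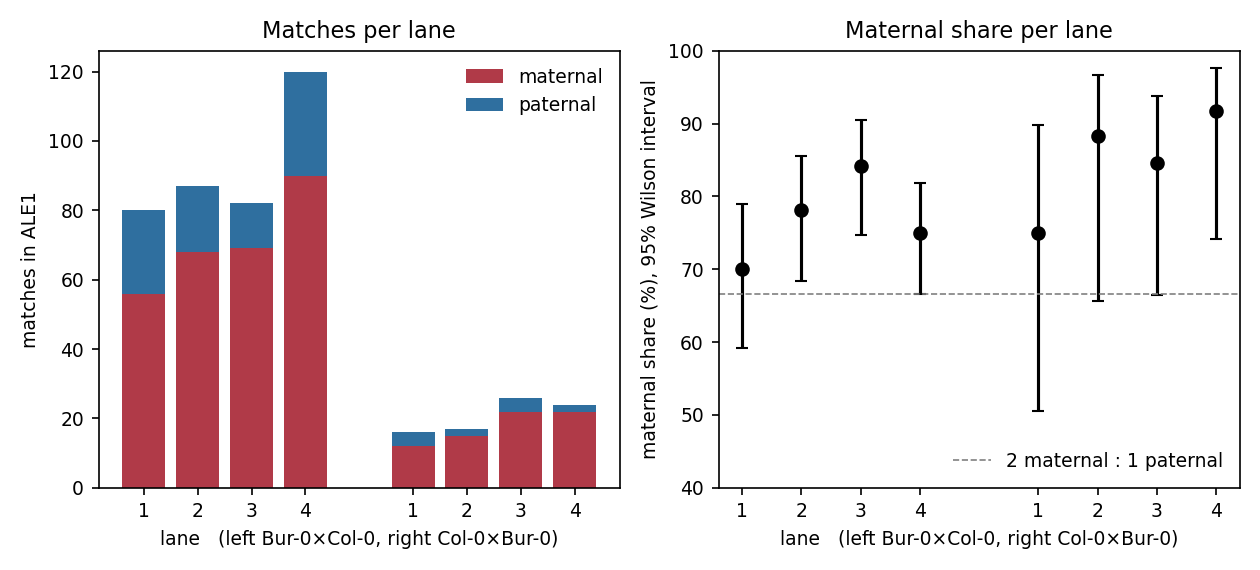
Matches in ALE1 by lane (left; maternal and paternal stacked) and maternal share with 95% Wilson interval (right; dashed line at 2m:1p), Bur-0×Col-0 in the left 4 positions and Col-0×Bur-0 in the right 4. The lanes of Bur-0×Col-0 held 80 to 120 matches and those of Col-0×Bur-0 held 16 to 26, and all 8 shares lie at 70.0% or above.

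Matches were spread thinly over the gene. The 52 windows were the most of any placed candidate MEG (maternally expressed gene), where the next had 20 and the median was 6. The median ALE1 window held 5 matches, 14 windows held at least 10, and 25 held fewer than 5. In Bur-0×Col-0, 40 windows had more maternal than paternal matches, 5 had equal numbers, 5 had more paternal and 2 had none. In Col-0×Bur-0, 18 had more maternal matches, 2 were equal, 9 had more paternal and 23 had none. Maternal Bur-0 was found in 49 windows and paternal Col-0 in 29, so the paternal Col-0 allele was seen along the whole gene. Maternal Col-0 was found in 20 windows. Paternal Bur-0 was found in 11, in 10 of them as a single match and in 1 as 2 matches.

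**Figure D2:**
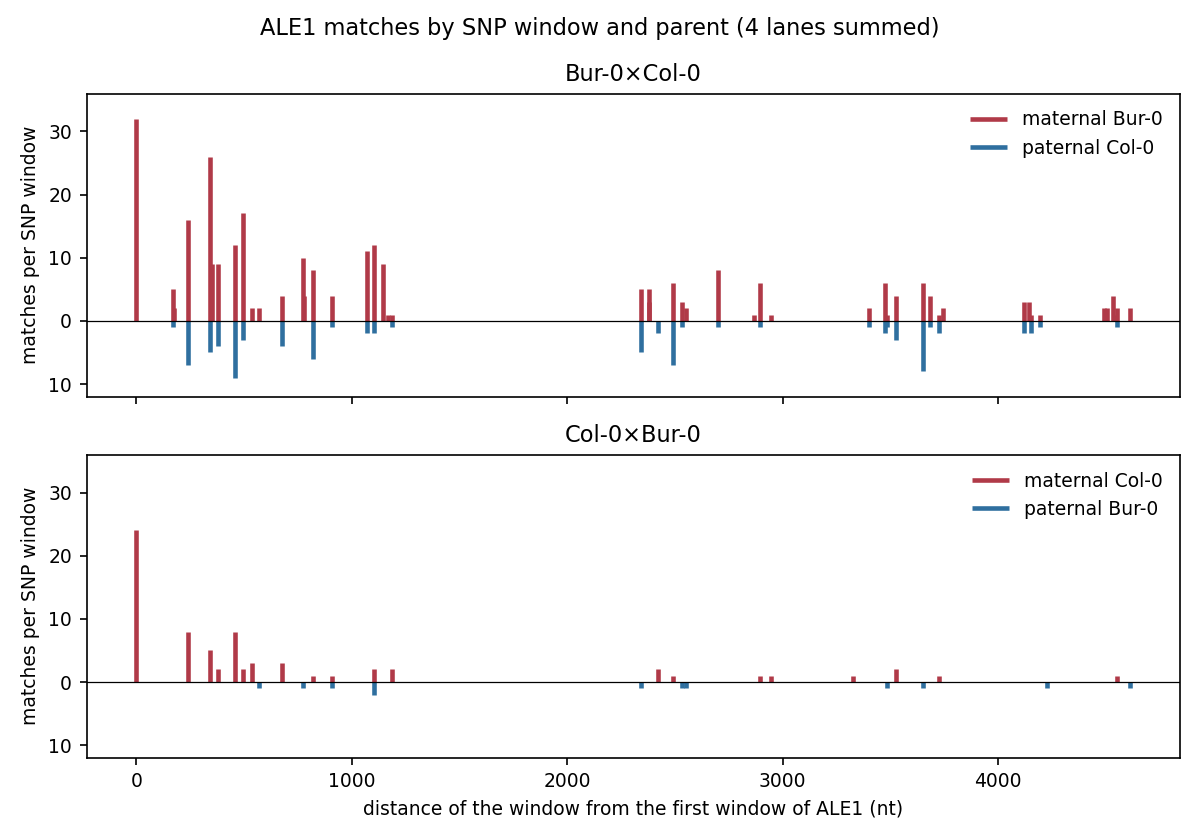
Matches per SNP window along ALE1 for Bur-0×Col-0 (top) and Col-0×Bur-0 (bottom), 4 lanes summed, maternal above and paternal below the zero line, by distance in nt from the first window. The first window is the highest in both crosses, with 32 and 24 maternal and 0 paternal matches, and paternal Col-0 matches are found on both sides of the 1158-nt gap.

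Tested window by window over the whole series against 2m:1p in both crosses, 32.1% of all matched windows were called maternally biased (q of at most 0.05). In ALE1 the count was 1 of 52 windows (1.92%). The share called moved with depth. Of windows that reached 20 matches in each of the crosses 92.4% were called, and of those with fewer than 20 in all 2.27%. In ALE1, 1 window reached 20 matches in each cross, and it was the one called.

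That window is the first of the run (23054630 to 23054700), 171 nt before the next one. It held 32 mBur and 0 pCol matches, and 24 mCol and 0 pBur matches (q = 2.17e-08). Lanes 1 to 4 gave 4, 9, 8 and 11 mBur and 2, 6, 10 and 6 mCol matches. No paternal match was thus found in any of the 8 lanes, which held 2 to 11 matches each. With the 4 lanes summed and every match counted, a count of 0 allows a paternal share of at most 9.38% (Bur-0×Col-0) or 12.5% (Col-0×Bur-0). The window supplied 11.3% of all mBur but 33.8% of all mCol matches of the gene. Its level was also unlike that of the rest of ALE1, with a ratio between the crosses of 1.05 per library total (0.601 to 1.87, Fisher's exact test, p = 0.894). The remaining 51 windows gave 4.51 (3.41 to 6.05).

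Many of its reads began at the same base. At position 12 of the window on the reverse strand began 24 of the 32 mBur and 7 of the 24 mCol matches. Counting each start and strand once per lane left 12 mBur and 18 mCol matches, with which a count of 0 allows paternal shares of up to 25.0% and 16.7%. Elsewhere starts were varied, and pCol matches began at 78 distinct starts with at most 2 at any one. Copies of 1 molecule and several molecules with the same start cannot be told apart in these reads.

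Without the first window, ALE1 was less maternal. The share was 74.5% in Bur-0×Col-0 (251 against 86, 69.6% to 78.8%) and 79.7% in Col-0×Bur-0 (47 against 12, 67.7% to 88.0%). Exact binomial tests against 2m:1p still gave a joint p of 0.00043. For the Col-0 allele, raw mCol over pCol was 0.826 over all windows and 0.547 without the first. The first window lies 496 nt from the last window of the neighbouring AT1G62333.

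Among the other windows, the 342-nt window (counted from the first) was the deepest, with 26 mBur, 5 pCol, 5 mCol and 0 pBur matches. It came close to the call (q = 0.0535). The 240-nt window held 16 mBur, 7 pCol and 8 mCol matches, and the 459-nt window 12 mBur, 9 pCol and 8 mCol. In these windows the paternal Col-0 allele was clearly present, whereas no paternal Bur-0 match was found. Depth limits this contrast. At 342, 240 and 459 nt a count of 0 in Col-0×Bur-0 allows paternal shares of up to 60.0%, 37.5% and 37.5%.

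The 494-nt window was more maternal in number, with 17 mBur, 3 pCol and 2 mCol matches. The 1102-nt window held 12 mBur, 2 pCol, 2 mCol and 2 pBur matches and was the only window with more than 1 pBur match. The windows at 378 nt (9 mBur, 4 pCol, 2 mCol) and 822 nt (8 mBur, 6 pCol, 1 mCol) had a larger paternal part. Along this first stretch, single windows thus ranged from mainly maternal to nearly equal in Bur-0×Col-0.

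In 4 of the deep windows the paternal Col-0 allele reached or passed the maternal Bur-0 allele. The 3652-nt window held 6 mBur, 8 pCol, 0 mCol and 1 pBur matches, the 2489-nt window 6, 7, 1 and 0, and the 2344-nt window 5, 5, 0 and 1. At 674 nt the counts were 4 mBur, 4 pCol and 3 mCol. The 772-nt window held 10 mBur and 0 pCol matches (0 mCol and 1 pBur), and the 1071-nt window 11 mBur and 2 pCol with none in Col-0×Bur-0. At 772 nt no Col-0 match of either parent was found, and the nearest matched SNP lies 5 nt away. The other 38 windows held 1 to 9 matches each.

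Each window with at least 10 matches in a cross was compared with the rest of the gene in that cross, in 14 two-sided Fisher's exact tests with Benjamini-Hochberg adjustment. In Bur-0×Col-0 the first window was more maternal than the rest (100% against 74.5%, adjusted exact p = 0.0035). The 3652-nt window was less maternal (42.9% against 78.0%, adjusted exact p = 0.039). The 2489-nt window (46.2% against 77.8%) and the first window in Col-0×Bur-0 (100% against 79.7%) missed the threshold, each at an adjusted exact p = 0.054. The other 10 tests gave 0.135 to 0.741.

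Over all windows, the split into maternal and paternal matches was uneven (exact Fisher-Freeman-Halton test, p = 1.21e-05, both crosses summed). Counting each start and strand once per lane gave an exact p of 0.0119. With every match counted but without the first window, the exact p was 0.0674. The crosses taken alone, again without the first window, gave an exact p of 0.018 (Bur-0×Col-0) and 0.0002 (Col-0×Bur-0). Within a cross each parent is a different accession, so these tests cannot separate parent from accession. Split by accession instead of parent, the matches were also uneven over the windows (same exact test, p = 9.94e-05).

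The matched windows fall into 2 stretches, separated by 1158 nt without a match. The stretches were set apart after the counts were seen, so their values are a description with no test. Between the first window and the gap, 20 windows held 164 mBur and 45 pCol (78.5%, 72.4% to 83.5%), and 37 mCol and 5 pBur (88.1%, 75.0% to 94.8%). Beyond the gap, 31 windows held 87 mBur and 41 pCol (68.0%, 59.5% to 75.4%), and 10 mCol and 7 pBur (58.8%, 36.0% to 78.4%). The intervals of the second stretch span 66.7% in both crosses, and the one for Col-0×Bur-0 rests on 17 matches.

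Which allele was counted moved with the spacing of SNPs over the whole series. The study required matches to be unique in the set of windows, which did not keep a read from matching more than 1 window. Neighbouring windows with the Col-0 base share sequence where they overlap, and windows with the Bur-0 base differ at the neighbouring SNP. Over the series, 7.12% of reads with the Bur-0 allele matched 2 or more windows, against 0.0116% of reads with the Col-0 allele. Among windows with at least 10 matches and another matched SNP within 10 nt, 39.5% had no Col-0 match and 0.894% had no Bur-0 match. Where the nearest matched SNP was over 70 nt away, these shares were 2.35% and 1.89%.

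**Figure D3:**
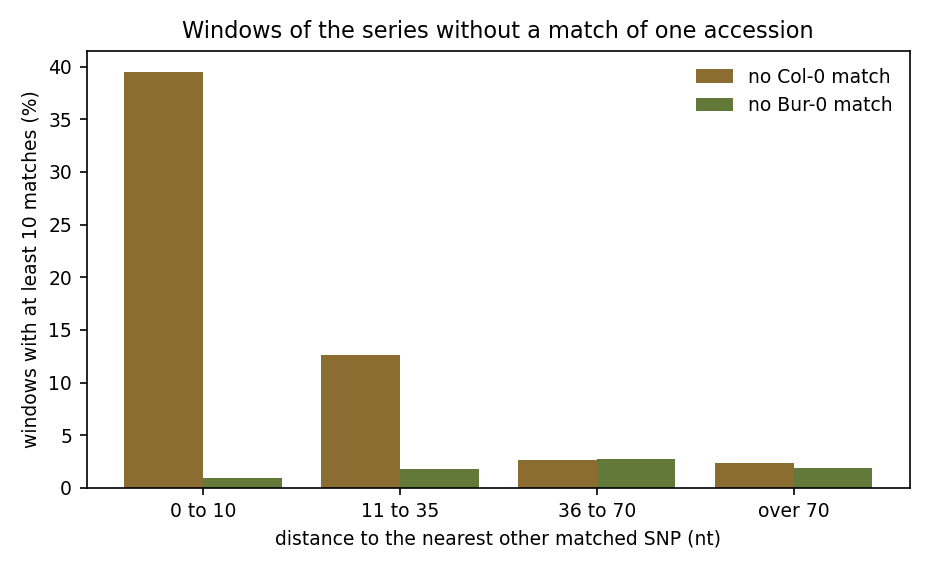
Share of SNP windows of the whole series with at least 10 matches that had no Col-0 match (brown) or no Bur-0 match (green), by distance to the nearest other matched SNP in nt. Windows without a Col-0 match made up 39.5% at 0 to 10 nt, 12.6% at 11 to 35 nt and 2.64% at 36 to 70 nt.

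ALE1 is densely covered with SNPs. Of its windows, 13 (25.0%) had no other matched SNP within 35 nt, against 58.2% of all matched windows. In the 39 crowded windows 18 had no Col-0 match and 0 lacked Bur-0, and Bur-0 made up 71.8% of matches. In the 13 isolated windows it made up 53.9% (two-sided Fisher's exact test of accession by spacing, p = 0.00015). The 429 reads behind the 452 matches showed the same asymmetry, as all 22 reads that matched more than 1 window carried the Bur-0 allele. Counted once per read, the crosses had 261 mBur and 86 pCol (75.2%), and 71 mCol and 11 pBur (86.6%).

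Bur-0 is the mother in one cross and the father in the other, so the maternal share was set beside the spacing in each. In the isolated windows the counts were 87 mBur and 32 pCol (73.1%, 64.5% to 80.3%), and 44 mCol and 2 pBur (95.7%, 85.5% to 98.8%). In the crowded windows they were 196 mBur and 54 pCol (78.4%), and 27 mCol and 10 pBur (73.0%). Two-sided Fisher's exact tests of parent by spacing gave p = 0.0045 for Col-0×Bur-0 and 0.292 for Bur-0×Col-0, and whether the crosses differ in this was not tested. The first window is among the isolated ones and alone gave 24 of their 44 mCol matches.

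The 12 isolated windows other than the first, a set formed after the data were seen, had 55 mBur against 32 pCol, or 63.2% (52.7% to 72.6%). In the other cross they had 20 mCol against 2 pBur, or 90.9% (72.2% to 97.5%). Against 66.7%, the one-sided exact binomial p was 0.788 for Bur-0×Col-0, and the joint p was 0.621. For Col-0×Bur-0 it was 0.0093. The crosses differed by 27.7 points (Fisher's exact test, p = 0.011). Per 1000000 matches, mBur stood at 6.41 and pBur at 0.295, and mCol at 2.95 and pCol at 3.73. The higher level in Bur-0×Col-0 was also found here, at 3.12-fold (1.94 to 5.24), as was the excess of maternal over paternal Bur-0, at 27.5 in raw counts. The size of the level ratio moved with the spacing. It was 2.04 (1.44 to 2.94) in all 13 isolated windows and 5.34 (3.77 to 7.76) in the 39 crowded ones. Isolation was judged against SNPs with a match, and SNPs without one may lie closer.

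**Figure D4:**
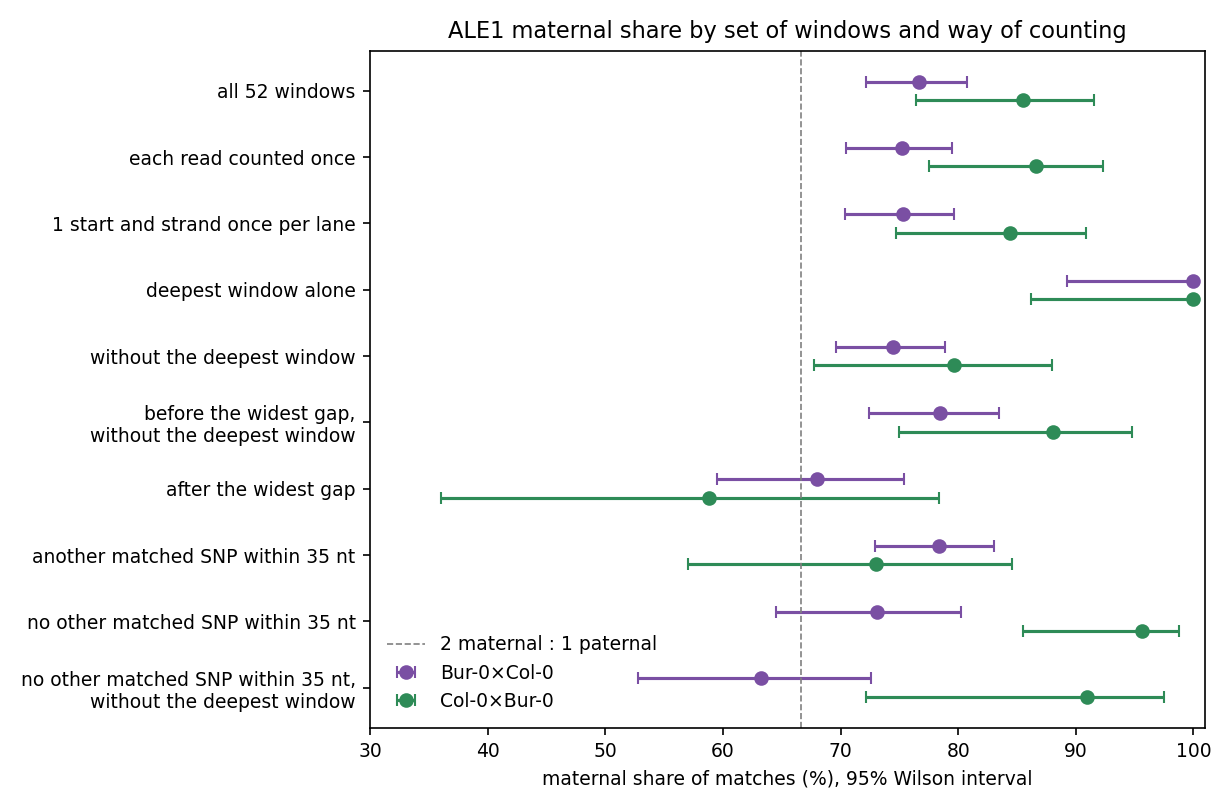
Maternal share of ALE1 matches with 95% Wilson interval in Bur-0×Col-0 (purple) and Col-0×Bur-0 (green), for each set of windows or way of counting; the dashed line marks 2m:1p. In Bur-0×Col-0 the share runs from 63.2% in the isolated windows without the first to 100% in the first window, here called deepest.

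The loci next to ALE1 with listed counts differed from it in parent and in level. AT1G62330 had 930 mBur and 2 pCol, and 447 mCol and 8 pBur, which are maternal shares of 99.8% and 98.2%. AT1G62333, the gene before ALE1, had 16028 mBur and 29 pCol, and 1565 mCol and 22 pBur (99.8% and 98.6%). Its level was 7.99-fold higher per library total in Bur-0×Col-0 (7.59 to 8.42), and that of AT1G62330 was 1.62-fold higher (1.44 to 1.81). Over all windows, levels higher with a Bur-0 mother were thus found in ALE1 and in both loci before it. In the 4 isolated windows of AT1G62330 this was not seen, with 208 mBur and 2 pCol against 236 mCol and 2 pBur. The 1 isolated window of AT1G62333 held 141 mBur and 0 pCol against 32 mCol and 4 pBur.

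On the other side, AT1G62430 (CDS1, a CDP-diacylglycerol synthase) had 895 mBur, 35 pCol, 759 mCol and 33 pBur matches (ratio of totals 0.927). ALE1 had a lower maternal share than each of these 3 loci in both crosses. All 3 come from the study's list of maternally biased loci, so their direction is fixed by that choice. The tests that follow use the listed sums and only describe these loci. In two-sided Fisher's exact tests adjusted over the 3 loci, the largest p was 1.1e-24 for Bur-0×Col-0 and 0.00052 for its reciprocal. The ratio of totals differed from ALE1 for all 3 as well, with a largest adjusted p of 2.2e-09. The first ALE1 window, with no paternal match, was nearer to these neighbours in its maternal share, whereas its ratio of 1.05 was below that of AT1G62333. From which transcript its reads came was not tested.

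**Figure D5:**
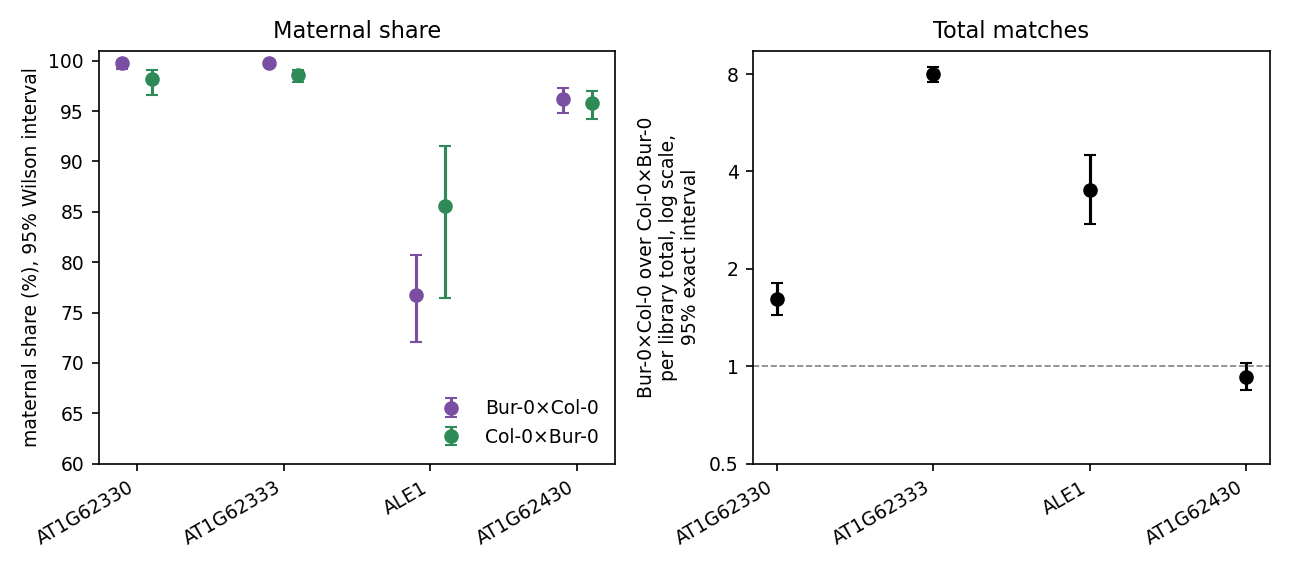
Maternal share with 95% Wilson interval (left, Bur-0×Col-0 purple and Col-0×Bur-0 green) and ratio of total matches between the crosses per library total with exact 95% interval on a log scale (right), for ALE1 and 3 listed loci near it in chromosome order. ALE1 has the lowest shares (76.7% and 85.5%), and its ratio of 3.51 lies between those of AT1G62333 and AT1G62330.

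Among the 36 placed candidate MEGs, ALE1 lay at the low end of maternal share, with 1 locus lower in Bur-0×Col-0 and 4 lower in Col-0×Bur-0. The medians were 96.4% and 99.8%. In the ratio of totals 3 were higher. The loci most like ALE1, by Euclidean distance of log2(count + 1) over the 4 allele counts, were AT4G29640, AT1G73560 and AGL96. AT4G29640 (distance 3.49) had 879 mBur, 149 pCol, 305 mCol and 56 pBur matches, and AT1G73560 (3.60) had 432, 196, 255 and 90. Their ratios of totals were 2.25 and 1.44. AGL96, which encodes a MADS-domain protein (3.74), had 108, 24, 16 and 2 with a ratio of 5.79. All 3 had more matches per library total with a Bur-0 mother. They were chosen by the 4 counts that make up this ratio, so their likeness to ALE1 in it is no separate result.

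Of 11 listed genes around the ALE1 protease, 3 were placed. They all come from the study's list of maternally biased loci, so their direction is fixed by that choice. GSO2, a receptor kinase for the TWS1 peptide, had 419 mBur, 8 pCol, 466 mCol and 7 pBur matches. ATML1 had 7283, 72, 4330 and 269, and PDF2 had 2118, 67, 1544 and 127. Both encode HD-ZIP IV factors of the epidermis. Their maternal shares of 92.4% to 99.0% were above those of ALE1 in both crosses, and their ratios of totals were 0.713 for GSO2, 1.26 for ATML1 and 1.03 for PDF2. TWS1, GSO1, the sulfotransferase TPST, the bHLH factors ZOU and ICE1, the ZOU target KRS, and the receptor kinases ALE2 and ACR4 were not analysed here.

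Of 11 other subtilase genes, 4 were placed, under the same restriction. SBT1.7, which acts in the release of seed coat mucilage, had 26737 mBur, 29 pCol, 33651 mCol and 125 pBur matches. SBT6.1, the site-1 protease, had 460, 3, 494 and 8. AT5G44530 had 524, 1, 434 and 1, and AT4G30020 had 2511, 38, 2490 and 69. Maternal shares of these 4 were 97.3% to 99.9%, and their ratios of totals were 0.626 to 0.953. ALE1 had the lowest maternal shares and the highest ratio among the 5 subtilase genes placed, and a link to the tissue of expression was not tested.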

How the data were processed

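The authors deposited, per lane, the matches of 36-nt Illumina reads to 71-nt windows centred on homozygous Bur-0 SNPs of TAIR8, found with vmatch (version not given in the sources used here) with up to 2 mismatches and kept only if unique among all windows. The deposited lines are neither normalized nor assigned to genes, and their values are match positions (another unit than a count). Matches were counted here per window, allele, cross and lane, and lanes were summed. Lane numbers only name the files. Of 2147 listed loci, 2049 were placed by equal sums, and 36 of 39 candidate MEGs. Symbols are from RefSeq TAIR10.1.

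Windows were called at q of at most 0.05, q being p multiplied by the number of matched windows and divided by its rank. The members and lists were chosen with earlier results of these data known. Named are ALE1 with its deepest windows (the 12 with the most matches, extended to 14 by ties), 3 of the 4 neighbours (the other is not reported here), the pathway and subtilase lists, and the 3 candidate MEGs most like ALE1. The placement of FWA was not unique, and the gene is not reported here. The Fisher-Freeman-Halton p was computed exactly with log weights rounded to 0.001, in place of an R function that ran out of workspace. The steps were tested on simulated data. Alternatives changed how reads were counted, the windows and lanes used, the null ratio and the scaling. Sequences of the windows were not analysed here. Tests used SciPy 1.17.1 under Python 3.11.15, tables pandas 2.3.3 and NumPy 2.4.6, and plots Matplotlib 3.10.9.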

Additional observations from a re-analysis of the deposited data

How the results depend on the processing

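Of 110 values recomputed under alternatives, 93 kept their side of the threshold or stayed within the counting interval, 10 moved beyond it, 4 lost and 3 gained a call. The ratio mCol over pCol, which carries no call, changed sides of 1 in the isolated windows, in the first window alone and when scaled to the library totals (1.05). The first window alone had maternal shares of 100% and 100%, a ratio of totals of 1.05 (p = 0.894, Fisher's exact test) and mCol over pCol of 24.0 with the 0 set to 1. Without it, mCol over pCol was 0.547 and the exact p for unevenness over windows 0.0674. In the isolated windows (nearest matched SNP over 35 nt away), the share in Col-0×Bur-0 was 95.7%, mCol over pCol 1.38, and the difference between the crosses 22.5 points (p = 0.00099, Fisher's exact test). Leaving out the first window there as well, chosen after seeing the data, gave a share of 63.2% in Bur-0×Col-0, a difference of 27.7 points, a joint p of 0.621 and an exact p for unevenness of 0.727. Counting each read once gave a difference of 11.4 points (p = 0.0277, Fisher's exact test). Beyond the gap the shares were 68.0% and 58.8%, in the opposite order to the main values. Against 1m:1p, 3 windows were called.

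Leaving out each lane in turn from both crosses gave joint p of 2.96e-09 to 1.6e-05, shares of 74.6% to 78.5% and 83.1% to 88.1%, differences of 5.54 to 11.4 points, ratios of totals of 3.33 to 3.97, mBur over pBur of 19.3 to 28.4, mCol over pCol of 0.671 to 0.952, exact p for unevenness of 1.39e-05 to 0.0024, and 1 window called each time. Leaving out lane 2 of Col-0×Bur-0 alone changed no call. No paired analysis was possible because each cross has 1 library and the lanes of the crosses share no pairing. In Col-0×Bur-0 the 12 pBur matches limit the precision.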
